A study of Mus musculus with 6 samples.

Results

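Eph receptors and ephrins were followed in whole colon of young mice that lacked Indian hedgehog in the gut epithelium. The set was named gene by gene and holds 10 genes: the receptors Ephb1, Ephb2, Ephb3, Ephb4, Ephb6, Epha2 and Epha4 and the ligands Efnb1, Efnb2 and Efna1. Rows of the expression table that carried 1 gene symbol represented 9 of them among 19938 genes. Ephb2 was not analysed here. Control colon, labelled wild type, came from 3 mice, and mutant colon from 3 VilCre;Ihhflox/flox mice, in which the villin promoter drives Cre recombinase in intestinal epithelium and both Ihh alleles carry the loxP-flanked segment. What the controls carried at Ihh or as a transgene is not stated beyond that label. Each mutant had a control littermate, so there were 3 litters and 6 Affymetrix Mouse Gene 1.0 ST arrays, 1 per mouse. The age is given as postnatal day 12 in the design text and as day 9 to day 12 in the growth protocol.

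Eph receptors are tyrosine kinases that read ligands, the ephrins, held on the surface of neighbouring cells. Ephrin-A ligands sit on a lipid anchor and ephrin-B ligands span the membrane, so that ephrin-B proteins also signal into the cell that carries them. In the intestinal crypt, EphB receptors are high at the base and ephrin-B ligands are high towards the surface, and the repulsion between them keeps proliferating and differentiated epithelial cells in order. Of the EphB receptor genes, Ephb2 and Ephb3 are textbook targets of beta-catenin and Tcf factors. Efnb2 and Ephb4 also mark arterial and venous endothelium, and several members of the family are found on muscle, stromal and nerve cells, so a whole-colon value sums several sources.

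The promoters of the ephrin that fell, its sister ligand and the receptor it meets in vessels are shown. The first was called lower in mutant colon and the others were not. Each promoter is the stretch of 250 bases before the RefSeq transcription start on GRCm38.p6, in the direction of the gene. Capitals mark matches to the motifs named after the sequences. Efnb2 lies on the minus strand at chr8:8661243-8661492, Efnb1 on the plus strand at chrX:99135811-99136060 and Ephb4 on the plus strand at chr5:137349859-137350108.
Efnb2: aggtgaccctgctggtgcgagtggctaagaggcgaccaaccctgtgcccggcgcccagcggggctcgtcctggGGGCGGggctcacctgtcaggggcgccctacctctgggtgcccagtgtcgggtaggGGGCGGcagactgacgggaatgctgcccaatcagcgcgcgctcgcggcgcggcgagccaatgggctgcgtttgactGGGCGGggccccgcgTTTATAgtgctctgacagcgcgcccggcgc
Efnb1: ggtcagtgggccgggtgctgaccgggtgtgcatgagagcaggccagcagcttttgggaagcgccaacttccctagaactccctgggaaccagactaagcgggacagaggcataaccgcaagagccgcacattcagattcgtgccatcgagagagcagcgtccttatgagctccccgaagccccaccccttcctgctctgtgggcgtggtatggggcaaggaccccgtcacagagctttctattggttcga
Ephb4: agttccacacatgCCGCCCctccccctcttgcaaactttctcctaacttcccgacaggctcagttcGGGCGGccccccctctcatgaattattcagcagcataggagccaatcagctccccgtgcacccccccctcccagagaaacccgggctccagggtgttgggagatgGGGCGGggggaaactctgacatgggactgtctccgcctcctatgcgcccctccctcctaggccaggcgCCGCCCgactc
Both strands were searched for 6 motifs. For Tcf/Lef factors of the Wnt pathway the letters were CTTTGAT. For Gli factors of the hedgehog pathway they were GGGTGGTC. For forkhead factors, which the gut mesenchyme makes under hedgehog control, they were TGTTTAC. For Rbpj, the Notch effector, they were GTGGGAA. The GC box bound by Sp factors was written as GGGCGG. The TATA box of the core promoter was written as TATAAA. No matches overlapped in these 3 windows. The Efnb2 window held 3 GC boxes and 1 TATA box, the latter read on the opposite strand with its first letter 30 bases before the start. The Ephb4 window held 4 GC boxes and the Efnb1 window held no match. The 10 genes of the set, Ephb2 included, have 11 such windows. Of these 8 windows, from 7 genes, held a GC box, against 32.7% of all 32851 windows. Efnb2 was the 1 gene with a TATA box, which 12.4% of all windows hold. The Tcf/Lef, Gli, forkhead and Rbpj letters, found in 3.21%, 0.703%, 3.17% and 5.42% of all windows, were in 0 of the 11 windows. A match describes letters in a window and says nothing of binding, and the absence of one covers these letters in this window alone.

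The comparison asked which genes differ in colon when the epithelium lacks the Ihh ligand. Levels are log2 values from RMA, changes are mutant minus control with their standard error, and a gene passed at an adjusted p under 0.05 in a limma fit with the litter as a block. Ihh itself was lower by a mean of -0.30 ± 0.09 (adjusted p = 0.139), while Ptch1, Gli1 and Hhip, which hedgehog signalling induces, fell by 1.44, 0.78 and 2.16. Littermates differed in Xist, the RNA that coats the inactive X chromosome. It stood between 11.92 and 12.03 in control 1, mutant 2 and mutant 3 and between 5.83 and 6.41 in the other 3 mice. The Y-linked gene Eif2s3y went the other way, at 3.60 to 3.81 in the former mice and 9.13 to 9.57 in the latter. By these genes mutant 1 was male, mutants 2 and 3 were female, and each control was of the opposite sex to its littermate. Every litter difference given here therefore holds a difference of sex as well as of genotype. Markers of epithelium were bright on every array, with a mean log2 level of 11.3 to 11.4 over 12 genes, and 10 measured markers of colonocytes and colon goblet cells averaged 10.3 to 10.4 in controls and 9.90 to 10.2 in mutants. Of these 10 genes 3 fell, Car4 (-1.40), Aqp8 (-1.29) and Clca1 (-1.11), and 0 rose. Over all genes 2.11% fell and 1.66% rose. The list went both ways, as 4 genes had all mutants below all controls and 3 had all mutants above. Among the latter, Car1 (0.63, adjusted p = 0.0570) and Muc2 (0.35, adjusted p = 0.0583) did not pass. Small intestinal enterocyte genes averaged 7.40 to 7.65 in controls and 7.83 to 8.01 in mutants, with 2 of 12 that rose, Fabp2 (adjusted p = 0.144 and 0.0914 without litters 1 and 3) and Slc10a2. The crypt was not separated from the rest of the gut wall.

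Of the 9 measured genes 1 fell, the ligand gene Efnb2, 0 rose and 8 did not pass. Of all genes measured, 3.77% passed, 2.11% as lower and 1.66% as higher in mutants. The receptor gene Ephb6 was just short of the threshold. The other ligand genes, Efnb1 and Efna1, and the receptor genes Ephb1 and Epha4 were lower in each litter without passing, and Ephb3, Ephb4 and Epha2 had overlapping groups. The median change of the 9 genes was -0.21, and that of all 19938 genes was 0.01. In 6 of the 9 genes the 3 mutants all lay below the 3 controls, an arrangement that 9.78% of all genes showed. The same 6 genes were lower in every litter, as were 17.1% of all genes, and had an unadjusted p under 0.05, as did 15.1% of all genes.

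**Figure D1:**
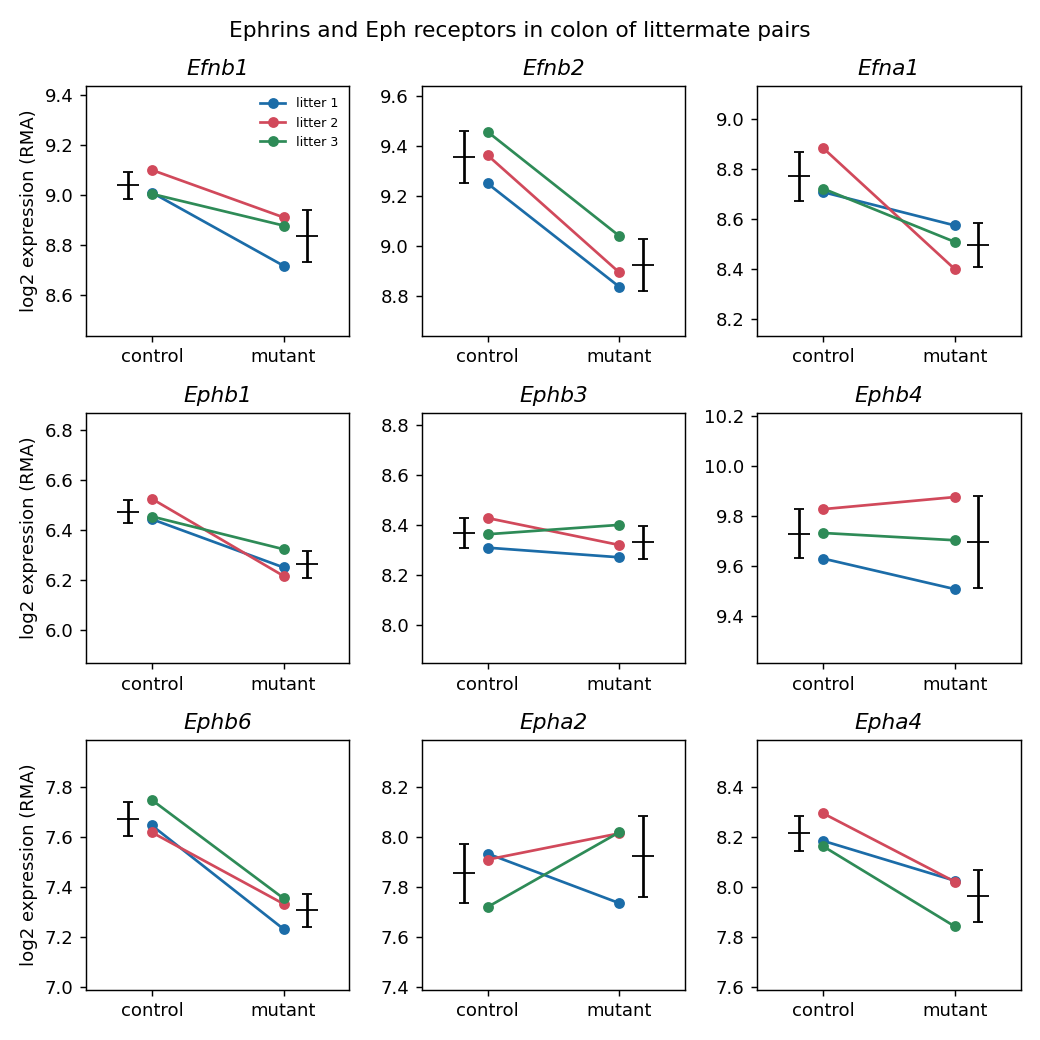
Log2 expression (RMA, vertical axis, each panel spanning the same range) of the 9 measured genes in control and mutant colon. Each dot is a mouse, a line joins littermates, and the black bars give the mean ± SD of 3 mice. All 3 lines slope down for Efnb1, Efnb2, Efna1, Ephb1, Ephb6 and Epha4, and the lines of Ephb3, Ephb4 and Epha2 run in both directions.

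Efnb2 encodes ephrin-B2, a membrane-spanning ligand of EphB receptors and of Epha4. Its level in litters 1 to 3 was 9.25, 9.36 and 9.46 in the controls, against 8.84, 8.90 and 9.04 in the mutants. Every mutant lay below every control, and the lowest control and the highest mutant were 0.209 apart. Efnb2 fell 1.35-fold, by 0.43 ± 0.08 on the log2 scale (95% interval -0.62 to -0.25, adjusted p = 0.0272). The difference was much alike in the litters, at -0.41, -0.47 and -0.42. Of all genes, 2.54% had a change as low or lower. The call was kept without litter 1 (adjusted p = 0.0437) and lost without litter 2 (0.0819) or litter 3 (0.1003), while the change stayed between -0.44 and -0.41 under the 13 alternative settings.

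Efnb1 encodes ephrin-B1, the other ephrin-B ligand of the set, and is X-linked. Controls measured 9.01, 9.10 and 9.01, and their mutant littermates 8.72, 8.91 and 8.88. The groups did not overlap, but the change of -0.20 ± 0.08 did not pass (adjusted p = 0.294). With the Xist level as a covariate, a fit that leaves 1 residual degree of freedom, the change was -0.23 (adjusted p = 0.139). The difference of Efnb2 exceeded that of Efnb1 in each litter, by -0.12, -0.28 and -0.29.

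Efna1 encodes ephrin-A1, the lipid-anchored ligand of EphA receptors, Epha2 foremost. Levels were 8.71, 8.88 and 8.72 in the controls and 8.57, 8.40 and 8.51 in the mutants. The groups did not overlap, and the pair of litter 2 was the furthest apart (-0.48, against -0.13 in litter 1 and -0.21 in litter 3). The mean change was -0.28 ± 0.10 (adjusted p = 0.202).

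Among the EphB receptors, Ephb6 showed the lowest change. Ephb6 encodes a receptor whose kinase domain lacks catalytic activity and which signals through the receptors it pairs with. Controls stood at 7.64, 7.62 and 7.75 and mutants at 7.23, 7.33 and 7.35. The highest mutant was 0.264 below the lowest control, a wider gap than that of Efnb2. The change was -0.36 ± 0.08 (95% interval -0.55 to -0.18) with adjusted p = 0.0535. Ephb6 passed under 6 of the 13 alternatives, with adjusted p = 0.0417 without the litter block, and over all of them the adjusted p ranged from 0.0289 to 0.249.

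Ephb3, which with Ephb2 positions cells along the crypt, measured 8.31, 8.43 and 8.36 in controls and 8.27, 8.32 and 8.40 in mutants. The groups overlapped, and the change of -0.04 ± 0.08 (adjusted p = 0.912) has a 95% interval from -0.22 to 0.15. Ephb4, the venous partner of ephrin-B2, measured 9.63, 9.83 and 9.73 in controls and 9.51, 9.88 and 9.70 in mutants. The mutants held both the highest and the lowest of the 6 values. The change was -0.03 ± 0.08 (adjusted p = 0.920, 95% interval -0.23 to 0.16).

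Ephb1, a receptor best known from axon guidance, was at 6.44, 6.53 and 6.45 in controls and 6.25, 6.22 and 6.32 in mutants. The groups were apart by 0.120 and the change was -0.21 ± 0.08 (adjusted p = 0.275). Ephb1 was the 1 measured gene of the set among the dimmest 30% of all genes. A second row named Ephb1 was dimmer, with a change of -0.10 and a higher value in the mutant of litter 2 (0.19).

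Neither EphA receptor of the set passed. Epha4, which binds ligands of both ephrin classes, measured 8.19, 8.30 and 8.16 in controls and 8.03, 8.02 and 7.84 in mutants. All mutants were below all controls, and the change was -0.25 ± 0.08 (adjusted p = 0.176). Epha2, an epithelial receptor of ephrin-A1, measured 7.93, 7.91 and 7.72 in controls and 7.73, 8.01 and 8.02 in mutants. It was lower in the mutant of litter 1 (-0.20) and higher in those of litters 2 and 3 (0.10 and 0.30). The mean change was 0.07 ± 0.11 (adjusted p = 0.864, 95% interval -0.18 to 0.32).

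The order of the 9 changes, from lowest, was Efnb2, Ephb6, Efna1, Epha4, Ephb1, Efnb1, Ephb3, Ephb4 and Epha2. Between neighbours in this order, only the step from Efnb1 to Ephb3 (0.17, SD 0.0863 over 3 litters) was larger than the SD of its litter values, so the other neighbours did not differ beyond their spread. Ligand and receptor of the vascular pair differed within litters, chosen here after their values were seen: the change of Efnb2 minus that of Ephb4 was -0.29, -0.52 and -0.39, a mean of -0.40 ± 0.113 (SD, n = 3 litters). The same difference between Ephb6 and Ephb4 was -0.29, -0.33 and -0.36 (mean -0.33 ± 0.0364, SD, n = 3 litters). With 3 litters an exact sign-flip test cannot go below p = 0.25, so these are given as sizes.

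The remaining Eph receptor and ephrin genes, 12 with a row, gave 1 fall and 0 rises, and their median change was -0.05. Of all genes 2.11% fell and 1.66% rose. The gene that fell was Epha7, a receptor of ephrin-A ligands known from the nervous system and mesenchyme. It stood at 9.64, 9.83 and 9.77 in controls and at 9.12, 9.42 and 9.04 in mutants, with every mutant below every control. Epha7 fell 1.47-fold, by 0.56 ± 0.09 (adjusted p = 0.0186, and 0.0775 without litter 3), the lowest change of the 21 measured family genes. Epha3, a receptor of ephrin-A5, went from 6.95, 6.91 and 7.08 to 6.75, 6.50 and 6.50. Its groups did not overlap, and the change of -0.40 ± 0.10 did not pass (adjusted p = 0.0718), although it did under 3 of 13 alternatives. Efna2, Epha5 and Epha1 had changes of -0.20, -0.14 and 0.16 with adjusted p of 0.436, 0.511 and 0.670, and the value of Epha1 came from litter 1, where the mutant was higher by 0.54. The other 7 genes had changes between -0.10 and 0.07.

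**Figure D2:**
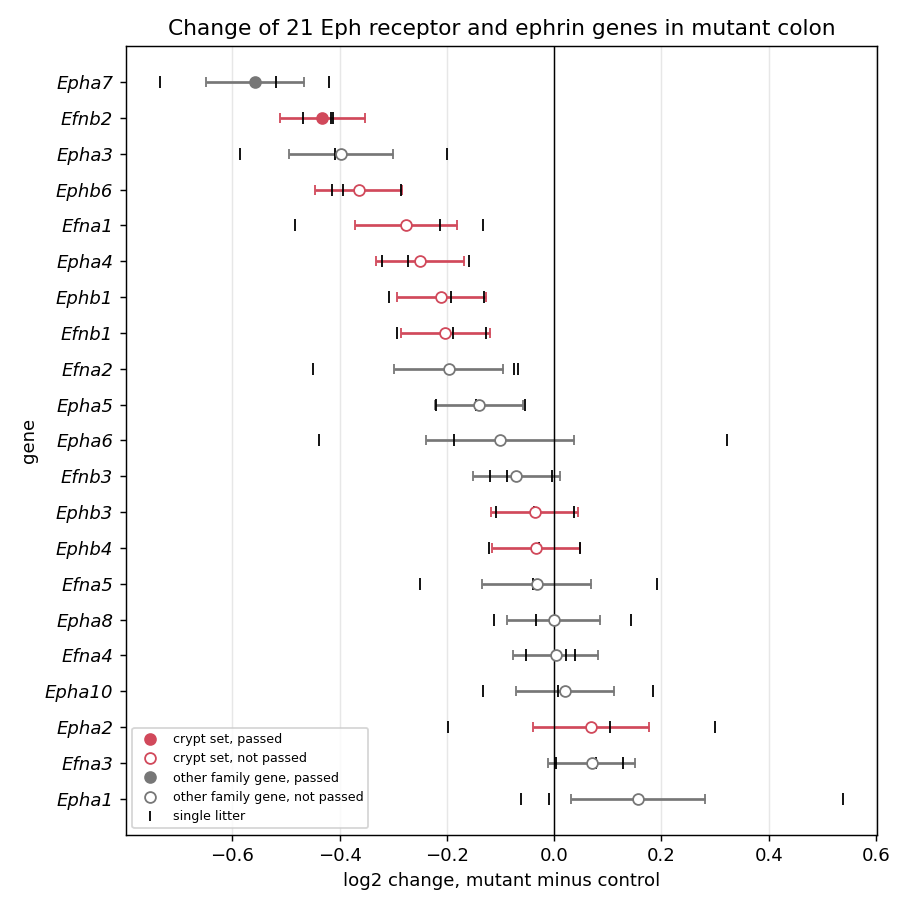
Log2 change, mutant minus control (horizontal axis), of the 21 measured Eph receptor and ephrin genes, ordered by size. Circles are the mean with its standard error from limma, filled where the adjusted p is under 0.05, red for the 9 genes of the set and grey for the other 12, and black ticks are the 3 litters. Filled circles stand at Epha7 (-0.56) and Efnb2 (-0.43), and the highest mean is that of Epha1 (0.16).

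Genes that carry the signal inside the cell were taken as a list of 33 adaptors, exchange factors, kinases, phosphatases and shedding enzymes, all of them measured. Of these 1 rose, 1 fell and 31 did not pass, with a median change of 0.00. Beside these counts, 3.77% of all genes passed in either direction. Vav3, an exchange factor that Eph receptors recruit, measured 8.28, 8.36 and 8.27 in controls and 8.83, 8.92 and 9.02 in mutants. It rose by 0.62 ± 0.08 (adjusted p = 0.00910), and all mutants were above all controls. Fyn, a Src-family kinase that acts downstream of ephrins and Eph receptors, measured 8.29, 8.44 and 8.43 in controls and 7.93, 8.01 and 8.08 in mutants. It fell by 0.38 ± 0.08 (adjusted p = 0.0424), a call lost without each litter in turn, with 0.0630, 0.155 and 0.160 without litters 1, 2 and 3. Both proteins serve many other receptors.

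Because Ephb2 and Ephb3 are known targets of beta-catenin in the crypt, 17 measured genes of that kind were set beside Ephb3. They went both ways, with 3 rises, 2 falls and a median change of -0.05. Among all genes 1.66% rose and 2.11% fell. Lgr5, which marks stem cells at the crypt base, and Sox9, a transcription factor of the crypt, rose by 0.68 ± 0.10 and 0.55 ± 0.08. Ascl2, a stem cell transcription factor, fell by 0.53 ± 0.10, and Myc, a driver of growth, rose by 0.48 ± 0.09. Ascl2 lost its call without litter 3 (adjusted p = 0.1145) and Sox9 without the litter block (0.0845). Myc lost it without litter 2 (0.1153), without litter 3 (0.0883) and without the block (0.119). The other gene that fell was Apcdd1, a Wnt inhibitor, by 0.43 ± 0.08 (adjusted p = 0.0348, and 0.0724, 0.0551 and 0.0829 without litters 1, 2 and 3). Ephb3, at -0.04, stood close to the median of the list.

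Efnb2 is made by endothelium as well as epithelium, and markers of vessels and muscle were lower in the mutants. In whole tissue fewer cells of a type and less RNA per cell cannot be told apart. Of 18 blood endothelium genes 9 fell and 0 rose, and their mean log2 level was 8.28 to 8.53 in controls and 7.90 to 8.11 in mutants. Of 10 genes that mark arterial or venous endothelium 1 fell, Sox17, an arterial transcription factor, at -0.42 ± 0.09. That list averaged 7.84 to 7.96 in controls and 7.74 to 7.77 in mutants. The list had a median change of -0.26, and 5 of its genes were lower in every litter, as were 17.1% of all genes. Among its arterial genes that did not pass, Hey1 and Gja4 were at -0.31 and -0.27, and Dll4 and Gja5 at 0.01 and 0.07. Of 12 smooth muscle genes 8 fell and 0 rose, with a mean level of 11.18 to 11.25 in controls and 10.45 to 10.90 in mutants. Beside these counts, 2.11% of all genes passed as lower. The falls among blood endothelium genes numbered 5, 6 and 2 without litters 1, 2 and 3 and 4 without the litter block, and those among smooth muscle genes 1 without litter 1 and 5 without the block. Sox17 had adjusted p = 0.0682 and 0.263 without litters 1 and 3, and 0.0525 without the block. No blood endothelium or smooth muscle marker was among the dimmest 30% of genes.

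The change of Efnb2 was compared with the median of each marker list in the same litter. Blood endothelium genes had medians of -0.39, -0.36 and -0.35 in litters 1 to 3, and Efnb2 differed from these by -0.02, -0.11 and -0.06. Epithelium genes had medians of 0.09, -0.08 and 0.02, with 1 of 12 that rose (Krt18), and Efnb2 differed from these by -0.51, -0.39 and -0.44. Within that list 2 genes were higher and 2 lower in every litter, while 17.1% of all genes were lower in every litter. Krt20, of the lower ones, changed by -0.72, -0.31 and -0.25, a mean of -0.43 that did not pass (adjusted p = 0.0837). The arterial and venous genes had medians of -0.10, -0.24 and -0.21, and Efnb2 lay below them by -0.32, -0.23 and -0.21. Colonocyte and colon goblet cell genes, with medians of 0.15, -0.45 and -0.36, differed from Efnb2 in litter 1 (-0.57) and lay close to it in litters 2 and 3 (-0.02 and -0.06). Smooth muscle medians were -0.75, -0.54 and -0.32, a spread between litters that Efnb2 did not share. For Ephb6 the differences were -0.03, 0.08 and -0.04 from the blood endothelium medians and -0.32, -0.04 and -0.18 from the arterial and venous ones. The part of endothelium, muscle or colonocytes in the values of Efnb2 and Ephb6 was not tested.

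**Figure D3:**
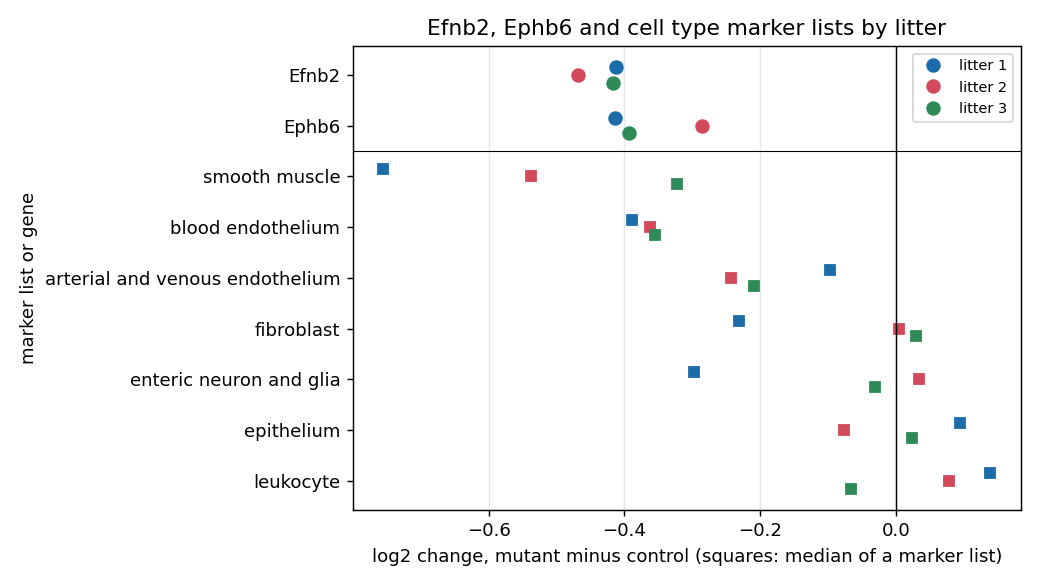
Log2 change, mutant minus control (horizontal axis), by litter (colour) for Efnb2 and Ephb6 (circles) and for the median of 7 cell type marker lists (squares). The circles lie between -0.47 and -0.29, with the blood endothelium medians at -0.39 to -0.35 in the same range. The arterial and venous medians (-0.24 to -0.10) lie above every circle, and epithelium and leukocyte medians lie on both sides of 0.

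Markers of fibroblasts, nerve and leukocytes were counted in the same way, beside 2.11% of all genes that fell and 1.66% that rose. Of 10 fibroblast genes 1 fell (Pdgfra, a growth factor receptor of mesenchyme, -0.42), and the list averaged 10.79 to 10.83 in controls and 10.53 to 10.82 in mutants. Pdgfra had adjusted p = 0.0561 and 0.200 without litters 2 and 3. Of 10 measured enteric neuron and glia genes 0 passed in the limma fit, and 0 of them had an unadjusted p under 0.05. Their mean level was 7.64 to 7.75 in controls and 7.50 to 7.76 in mutants. Of 10 measured leukocyte genes 3 rose, Itgam (adjusted p = 0.0546 without litter 3 and 0.0515 without the litter block), S100a8 and S100a9, and 0 fell. The list went both ways, with 3 genes higher and 3 lower in every litter and a median change of 0.01. Csf1r, of the lower ones, was at -0.38 (adjusted p = 0.0670). S100a8 was among the dimmest 30% of all genes, as were Cd79a and Cpa3. The leukocyte list averaged 7.04 to 7.37 in controls and 7.26 to 7.66 in mutants.

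The genes whose litter differences most resembled those of Efnb2 were Sh3bgr, Cd34 and Tmem273. Likeness was the root mean square difference over the 3 litter changes, which was 0.0101, 0.0113 and 0.0303 for these genes. Cd34, a surface protein of endothelium and some stromal cells, changed by -0.40, -0.47 and -0.40 in litters 1 to 3 and passed the test (adjusted p = 0.0290, and 0.0954 and 0.106 without litters 2 and 3). For Ephb6 the nearest were Fam210b, Ptpn14 and Nell2, with differences of 0.0225, 0.0337 and 0.0360. Of 19938 genes, 87 lay within 0.1 of Efnb2 and 129 within 0.1 of Ephb6, a wider limit than the differences above. The nearest genes were picked from all of these on 3 values each, and whether such likeness exceeds chance was not tested.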

How the data were processed

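The table used holds log2 values for 35557 rows and 6 arrays, deposited by the authors and made with RMA per the submitters' processing notes. No RMA version or probe build is named in these sources. Array medians lay between 7.10 and 7.14. Rows were named through the platform annotation of 2016. Of these rows 21789 had 1 symbol, and the highest-mean row per gene was kept, which left 19938 genes with no filter on low values. Entrez identifiers of 21698 rows matched a RefSeq table on GRCm38.p6, and promoters came from RefSeq on the same build.

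The 3 mutants were set against the 3 controls in limma 3.58.1 under R 4.3.3 (two-sided moderated test, Benjamini-Hochberg adjustment over 19938 genes), with the litter as a fixed block since the design text calls same-numbered mice littermates. Littermates' deviations from their group means correlated by 0.0128, 0.00516 and 0.0613, so the pairing rests on the labels. Intervals are 95% from the moderated fit. Array number, 3 per group, limits the precision.

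The genes of the set and all lists were chosen with earlier results of these data known. Named by rule were all members, the family gene that passed and the 4 next by p, up to 4 passing genes of the partner and beta-catenin target lists, and 3 genes nearest to each of the 2 members with the smallest p. Others, the marker genes among them, were named after their values were seen. The procedure was tested on simulated data, where it recovered 46%, 97% and 100% of changes of 0.5, 1 and 2 on the log2 scale. Of 185 calls there 15 were false. Changes below 0.5, the size of those in the set, were not simulated. Alternatives concerned the litter (no block, a random block, each litter left out), the variance (a robust trend in eBayes, array weights), the scale (median centring, quantile normalization), the rows (a gene's mean row, every single-symbol row, the dimmest 30% of genes removed) and Xist as a covariate.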

Additional observations from a re-analysis of the deposited data

How the results depend on the processing

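Efnb2 passed under 11 of 13 alternatives and Epha7 under 12. The set counted 2 falls, Efnb2 and Ephb6, without the litter block (no replicate block), with a random replicate block, under a robust eBayes trend, with array weights, without the dimmest 30% of genes and with Xist as a covariate. It counted 1 under the other alternatives with 3 litters, and 0 to 1 with a litter left out. The other family genes counted 2 falls, Epha3 beside Epha7, with a random replicate block and with array weights, and 0 to 2 with a litter left out. Signalling partners counted 3 with a random replicate block (Chn1, Fyn and Vav3) and 1 to 2 with a litter left out. Without litter 2 the 2 were Chn1 and Vav3. In the main fit Chn1 was at -0.39 and did not pass (adjusted p = 0.0828). Over all genes 751 passed, 638 with no replicate block, 1246 with array weights and 1230 with Xist as a covariate. Small changes crossed 0: with single litters left out Ephb4 ranged from -0.0756 to 0.00965, Epha2 from -0.0466 to 0.202 and Epha1 from -0.0357 to 0.264, and with Xist as a covariate Epha2 was at -0.00729. The scalings moved the median of all genes to between -0.01 and 0.01. The precision of the arrays is set by 3 mice per group, and no background level was used.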
